A study of Mus musculus with 10 samples.

Results

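The genes described here are 30 genes of the mouse lysosome, whose transcripts were counted by RNA sequencing of sorted spleen dendritic cells. They were listed by name, with earlier results of these data known. They fall into 5 roles: 4 genes of the lysosomal membrane (Lamp1, Lamp2, Mcoln1, Npc1), 9 genes of lysosomal proteases (Ctsa, Ctsb, Ctsc, Ctsd, Ctsh, Ctsl, Ctss, Ctsz, Tpp1), 8 genes of other hydrolases and their cofactors (Hexa, Neu1, Gla, Gusb, Lipa, Npc2, Psap, Grn), 7 genes of the proton pump (Atp6v0a1, Atp6v0b, Atp6v0c, Atp6v0d1, Atp6v1a, Atp6v1b2, Atp6v1h) and 2 transcription factors (Tfeb, Tfe3). All 30 were found among the 53379 gene identifiers in the deposited files, and all 30 passed the filter on low counts, which 14528 genes passed. The mice were C57BL/6 animals aged 16 weeks, either Atg16l1 +/+ (WT) or Atg16l1 -/- (KO), and each spleen was handled separately. Dendritic cells, taken as high in both CD11c and MHC class II, were separated into CD11b-positive CD8-negative and CD11b-negative CD8-positive cells, which gave 4 groups: 3 libraries of CD11b WT and 3 of CD8 WT, and 2 of CD11b KO and 2 of CD8 KO. The series title places the study in a mouse model of atherogenesis. The labels name no diet, no further allele, and no promoter or cell type that limits the deletion.

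The lysosome is the acidic compartment in which cells break down proteins, lipids and sugars delivered by endocytosis, phagocytosis and autophagy. Its lumen is acidified by the vacuolar proton pump (V-ATPase), which joins an ATP-hydrolysing V1 part to a proton-conducting V0 part in the membrane, and its enzymes work best at that low pH. TFEB and TFE3 are related transcription factors that bind E-box sequences of the CLEAR type in promoters of lysosomal genes and are held in the cytoplasm when the kinase complex mTORC1 is active at the lysosomal surface. In dendritic cells the lysosomal proteases also trim antigens and cut the invariant chain for presentation on MHC class II. ATG16L1, the product of the gene labelled -/- in the KO mice, helps to attach LC3 to autophagosome membranes, and those vesicles deliver their contents to lysosomes. Its protein was not measured here.

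The libraries held 9467704 to 13768884 gene counts each, and levels are given as CPM, the count of a gene over the size of its library after scaling by TMM. In all 10 libraries the subset markers pointed to the subset opposite to the label. Cd8a and Xcr1, which mark the CD8-positive subset (cDC1), reached 447 to 577 CPM and 289 to 441 CPM in the libraries labelled CD11b, against 0.904 to 5.86 CPM and 7.13 to 11.2 CPM in those labelled CD8. Itgam, which encodes CD11b, and Sirpa, which also marks the CD11b-positive subset (cDC2), reached 76.0 to 104 CPM and 551 to 628 CPM in the libraries labelled CD8, against 1.58 to 2.73 CPM and 23.9 to 29.2 CPM in those labelled CD11b. The groups are therefore called label CD11b and label CD8, and every direction below is that of the labels as deposited. Atg16l1 ranged from 13.3 to 32.6 CPM in WT (6 libraries) and from 1.73 to 3.30 CPM in KO (4 libraries). CD11b WT 1 differed more from the other 2 libraries of its group (chi-square per gene of 23.8 and 30.7) than those 2 differed from each other (11.8), and CD8 KO 2 had the highest sum of 12 B cell markers, 2783 CPM against 275 to 1160 CPM in the other 9. Nothing in the labels says that libraries of different subsets with the same number came from the same mouse, and replicates within a group are taken as separate mice.

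The first comparison, label CD11b against label CD8 in WT mice, asks how the lysosomal genes differ between the subsets. Most called proteases and most called other hydrolases differed in opposite directions. Of the 9 proteases, 7 were lower at label CD11b, none was higher and 2 were not called, whereas of the 8 other hydrolases and cofactors 6 were higher at label CD11b (Psap, Gusb, Npc2, Grn, Lipa and Hexa) and 2 were lower (Gla and Neu1). Of 4 membrane genes 3 were lower at label CD11b, as were both transcription factors. Of the 7 proton pump genes 1 was higher and 1 lower, so 28.6% were called, beside 29.5% of all genes tested. Their median size of log2 fold change was 0.27, beside 0.52 over all genes tested.

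In this comparison 22 of the 30 genes (73.3%) were called at an adjusted p under 0.05 (edgeR quasi-likelihood test, Benjamini-Hochberg over 14528 genes), beside 29.5% of all genes tested. Of the 30, 7 were higher at label CD11b, beside 13.8% of all genes, and 15 were lower, beside 15.7%. The median log2 fold change of label CD11b over label CD8 was -0.33 over the 30 genes and 0.0032 over all genes tested. For 24 of the 30 genes the 3 libraries of each label did not overlap, which held for 41.5% of all genes. Without CD11b WT 1 and CD8 KO 2, 6 genes were called higher and 14 lower.

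**Figure D1:**
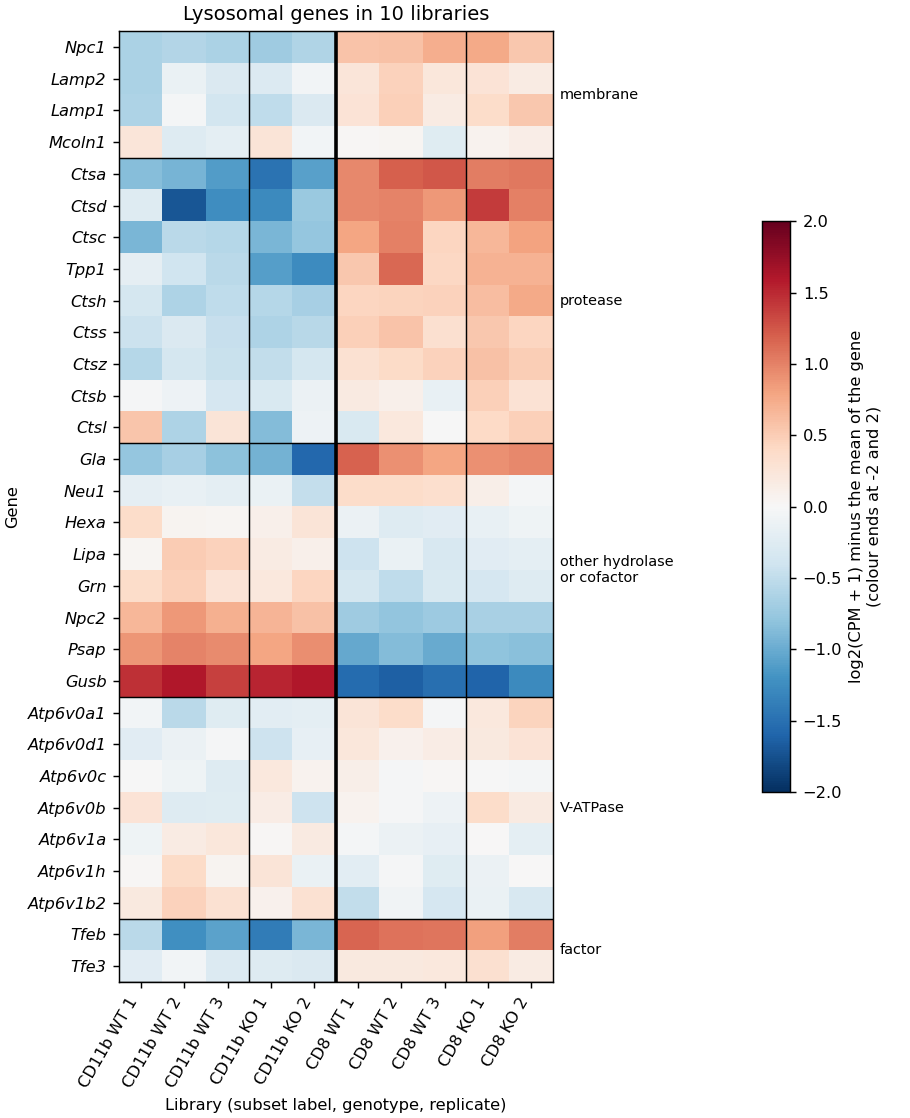
Level of each of the 30 lysosomal genes (rows, grouped by role) in the 10 libraries (columns), as log2(CPM + 1) minus the mean of that gene over the libraries, with red for higher and blue for lower. Gusb, Psap and Npc2 are red in the 5 libraries labelled CD11b, while Tfeb, Npc1, Ctsa and Ctsc are red in the 5 labelled CD8.

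The sums of the proteases and of the other hydrolases and cofactors showed the same split in CPM, with no overlap between the labels. The 9 proteases summed to 1042 to 1229 CPM at label CD11b and to 2109 to 2441 CPM at label CD8, over 5 libraries each. The 8 other hydrolases and cofactors summed to 6717 to 7694 CPM at label CD11b and 2174 to 2427 CPM at label CD8, and most of this sum was Psap. With Psap counted, the 30 genes together reached 8474 to 9713 CPM at label CD11b and 5223 to 5877 CPM at label CD8. Without Psap the order turned round, with 3059 to 3479 CPM at label CD11b and 3657 to 4068 CPM at label CD8. The 7 pump genes summed to 383 to 411 CPM and 367 to 410.2 CPM, ranges that overlap.

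Markers of other cells also differed between the labels. Of 15 markers of red pulp macrophages, cells rich in lysosomes, 10 were lower at label CD11b in WT and 10 in KO, and the list summed to 99.4 to 130.3 CPM in CD11b WT, 118 to 144 CPM in CD11b KO, 304 to 403 CPM in CD8 WT and 472 to 476 CPM in CD8 KO. Of 12 B cell markers, 7 were lower at label CD11b in WT and 12 in KO, with sums of 294 to 363, 275 to 616, 582 to 1160 and 1040 to 2783 CPM in the same order of groups. Of 8 monocyte markers, 7 of them tested, 4 were lower and 1 higher at label CD11b in WT, and 3 lower and 1 higher in KO, with sums of 258 to 309, 255 to 261, 366 to 464 and 449 to 517 CPM. Of 9 neutrophil markers 2 were tested and 1 was lower at label CD11b in each genotype, with sums of 1.43 to 2.32, 3.32 to 4.24, 14.5 to 18.9 and 18.7 to 18.9 CPM. Markers of plasmacytoid dendritic cells went the other way, with 4 of 6 higher and 0 lower at label CD11b in WT and 3 higher and 1 lower in KO, and sums of 107.8 to 160.8, 136 to 146, 85.3 to 90.9 and 97.3 to 122 CPM. No marker of T and NK cells (1 of 8 tested) or of erythroid cells (4 of 5 tested) was called. No marker of these lists was at 0 in all 10 libraries. The first 4 lists thus had lower sums at label CD11b in each genotype, where the called proteases, membrane genes and transcription factors were lower. The plasmacytoid list had higher sums at label CD11b, where most called hydrolases and cofactors were higher. The part of these lists in those differences was not tested. In sorted bulk samples, a different share of cells and a different amount of RNA per cell cannot be told apart.

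Tfeb was the more unequal of the transcription factors between the labels. Tfeb (ENSMUSG00000023990, chr17:47737030-47792419, GRCm38) stood at 25.2, 15.4 and 17.2 CPM in CD11b WT and at 84.9, 80.4 and 79.4 CPM in CD8 WT. Every CD8 WT library was above every CD11b WT library, and the KO libraries, at 13.5 and 19.2 CPM against 66.6 and 76.7 CPM, were split the same way. The log2 fold change of Tfeb in WT was -2.08 (edgeR SE 0.18, adjusted p = 1.568e-09). Tfe3 (chrX:7762560-7775202) stood at 75.9, 85.2 and 73.3 CPM in CD11b WT and at 101.9, 101.7 and 102.3 CPM in CD8 WT. These groups did not overlap either, and the log2 fold change of Tfe3 was -0.38 (edgeR SE 0.11, adjusted p = 0.00905).

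Per unit of exonic length (TPM), the order of these 2 factors differed between the labels. In CD11b WT Tfe3 had 14.02 ± 1.98 TPM and Tfeb 5.55 ± 1.04 TPM (SD, n = 3), and no Tfeb library reached the lowest Tfe3 library. In CD8 WT Tfeb had 30.1 ± 0.594 TPM and Tfe3 23.0 ± 1.15 TPM, again with no overlap. Mitf and Tfec, the other members of their family, were low in WT, at 2.34 ± 0.242 and 0.0965 ± 0.144 TPM at label CD11b and 2.4997 ± 0.636 and 0.206 ± 0.0412 TPM at label CD8. Neither passed the test between the labels in WT (Mitf edgeR adjusted p = 0.663, Tfec 0.749).

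Promoters of the 30 genes were searched for the core of the TFEB and TFE3 recognition sequence, CACGTG, which reads the same on both strands. RefSeq promoters on GRCm38.p6 (250 bases before to 50 after the gene start) were at hand for 25 of the 30 genes, with 32 windows in all, and not for Atp6v1b2, Atp6v1h, Ctsb, Ctsh and Npc1. CACGTG was present in 9 of the 25 genes (36.0%), against 8.093% of 27025 genes with a promoter and 11.613% of the tested genes among them. The longer TCACGTGA was present in 6 of 25 (24.0%, against 1.125% and 2.159%) and GTCACGTG, searched on both strands, in 7 of 25 (28%, against 2.549% and 4.737%). The palindrome of 10 bases that joins these longer motifs was in none of the 25, against 0.37% and 0.806%. All 4 motifs contain CACGTG, so their matches overlap, and a match describes letters, not binding.

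By the calls between the labels in WT, the 9 genes with CACGTG were 4 that were lower at label CD11b (Ctsa, Ctsd, Gla and Lamp1) and 5 that were not called (Atp6v0b, Atp6v0d1, Atp6v1a, Ctsl and Mcoln1). None of the 6 genes higher at label CD11b that had a window held it (Grn, Gusb, Hexa, Lipa, Npc2 and Psap), and 9 genes lower at label CD11b did not hold it either, among them Tfeb and Tfe3 themselves. These counts are small and carry no test. The windows below show 3 genes that hold the core and the 2 genes with the strongest evidence of higher levels at label CD11b, Gusb and Psap, which do not. They run 5′ to 3′ on the strand of the gene, end at the base before the annotated start, and carry capitals at CACGTG and at the letters that complete TCACGTGA, GTCACGTG or its reverse complement CACGTGAC, where these occur in full.
Lamp1, chr8:13158911-13159160, plus strand: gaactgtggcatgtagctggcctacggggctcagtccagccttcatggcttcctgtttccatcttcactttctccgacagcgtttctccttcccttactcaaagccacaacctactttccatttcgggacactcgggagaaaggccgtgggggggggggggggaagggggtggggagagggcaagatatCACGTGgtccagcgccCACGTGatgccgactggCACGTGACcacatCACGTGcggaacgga
Mcoln1, chr8:3500269-3500456, plus strand: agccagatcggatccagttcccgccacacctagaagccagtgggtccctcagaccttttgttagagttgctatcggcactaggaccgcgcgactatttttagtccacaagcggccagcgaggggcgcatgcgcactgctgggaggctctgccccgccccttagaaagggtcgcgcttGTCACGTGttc
Atp6v0b, chr4:117887334-117887579, minus strand: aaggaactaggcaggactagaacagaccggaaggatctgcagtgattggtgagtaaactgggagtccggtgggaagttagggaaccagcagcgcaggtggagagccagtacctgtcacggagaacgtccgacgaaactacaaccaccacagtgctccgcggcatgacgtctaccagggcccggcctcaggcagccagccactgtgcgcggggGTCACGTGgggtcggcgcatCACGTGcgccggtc
Gusb, chr5:130003050-130003299, minus strand: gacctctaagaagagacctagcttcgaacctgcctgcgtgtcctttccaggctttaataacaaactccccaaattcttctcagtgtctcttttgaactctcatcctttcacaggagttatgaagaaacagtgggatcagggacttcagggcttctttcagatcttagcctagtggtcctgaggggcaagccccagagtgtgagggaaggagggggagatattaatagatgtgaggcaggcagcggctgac
Psap, chr10:60277378-60277626, plus strand: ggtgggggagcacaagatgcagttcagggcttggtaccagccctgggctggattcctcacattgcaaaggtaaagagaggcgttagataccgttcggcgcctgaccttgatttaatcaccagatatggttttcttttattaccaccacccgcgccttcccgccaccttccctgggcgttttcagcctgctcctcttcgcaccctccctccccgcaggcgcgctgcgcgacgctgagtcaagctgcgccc
The Lamp1 window holds 4 copies of the core near its end, of which 1 is extended to CACGTGAC, and the Atp6v0b window holds 2. The Mcoln1 window also holds 2, but only GTCACGTG is printed. Its other match, TCACGTGAC at position -45 from the RefSeq start, lies beyond the printed end. In the window of Gla, which overlaps an exon of a neighbouring gene and is not shown, the matches were TCACGTGA and GTCACGTGA.

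Among the proteases, Ctsa (chr2:164832873-164841032), which encodes cathepsin A, a serine carboxypeptidase that also protects beta-galactosidase and neuraminidase 1, had the smallest p. Its levels were 67.2, 63.5 and 56.0 CPM in CD11b WT and 239, 282 and 290.2 CPM in CD8 WT. The KO libraries, at 43.6 and 57.1 CPM against 249 and 256 CPM, were split the same way, and no library of either label came near the other. The log2 fold change was -2.12 (edgeR SE 0.12, adjusted p = 1.133e-12). Ctsa overlaps Pltp on the other strand, and its counts here come from the strand of the gene only.

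Ctsc (chr7:88278085-88310888) encodes cathepsin C, the dipeptidyl peptidase that activates granule serine proteases. Its levels were 70.7, 91.3 and 89.9 CPM in CD11b WT and 232, 269 and 181 CPM in CD8 WT, with a log2 fold change of -1.44 (edgeR SE 0.13, adjusted p = 5.194e-09). The lowest CD8 WT library was well above the highest CD11b WT library. Ctss (chr3:95526786-95556403) encodes cathepsin S, the main protease for the last cuts of the invariant chain in dendritic cells. It stood at 388, 431 and 382 CPM in CD11b WT and at 731, 782 and 654.5 CPM in CD8 WT, with a log2 fold change of -0.85 (edgeR SE 0.086, adjusted p = 3.034e-08). The groups of Ctss did not overlap.

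In all, 4 further proteases were lower at label CD11b in WT by edgeR's test. Ctsd, for the aspartic protease cathepsin D, had a log2 fold change of -1.99 (SE 0.29, adjusted p = 7.840e-06) on 61 to 576 counts a library. In the annotation 34.4% of the exonic bases of Ctsd lie under Gm49369 on the same strand, where reads count for neither gene, and Gm49369 had no counts in any library, so the TPM of Ctsd leaves out the reads of those bases. Tpp1, for tripeptidyl peptidase 1, the enzyme lacking in a form of Batten disease, had -1.15 (SE 0.21, adjusted p = 0.000115). Ctsh, for cathepsin H, an aminopeptidase, had -0.94 (SE 0.097), and Ctsz, for the carboxypeptidase cathepsin Z, had -0.84 (SE 0.090), with adjusted p-values of 4.444e-08 and 8.789e-08.

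Ctsb and Ctsl were not called in WT. Ctsb, for cathepsin B, stood at 290.5, 275 and 234 CPM in CD11b WT and at 337, 317 and 267 CPM in CD8 WT, groups that overlap, with a log2 fold change of -0.20 (95% interval -0.42 to 0.013, edgeR adjusted p = 0.159). Ctsl, for cathepsin L, which processes the invariant chain in thymic epithelium, was the lowest of the 30 per length in all 4 groups. In the annotation 6.1% of its exonic bases lie under Gm49230 on the same strand, so its TPM leaves out the reads of those bases. With the longest transcript as the length Ctsl was again the lowest in each group. It ranged from 6.78 to 16.6 CPM in CD11b WT and from 8.74 to 12.9 CPM in CD8 WT, and its interval, -0.49 to 0.82, was the widest of the 9 proteases.

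Among the other hydrolases and cofactors, Gusb and Psap had the smallest p of all 30 genes. Gusb (ENSMUSG00000025534, chr5:129989011-130003049), for beta-glucuronidase, which removes glucuronic acid from glycosaminoglycans, stood at 517, 567 and 479.6 CPM in CD11b WT and at 63.1, 59.2 and 64.9 CPM in CD8 WT. No library came between, and the KO libraries lay at 540.05 and 569 CPM against 60.7 and 76.4 CPM. The log2 fold change was 3.06 (edgeR SE 0.11, adjusted p = 5.515e-16), an 8.35-fold higher level at label CD11b.

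Psap (ENSMUSG00000004207, chr10:60277627-60302597) encodes prosaposin, the precursor of the saposins that present sphingolipids to their hydrolases and load lipids on CD1 molecules. It stood at 5822, 6234 and 6035 CPM in CD11b WT and at 1550.5, 1725 and 1566 CPM in CD8 WT, and its log2 fold change was 1.90 (edgeR SE 0.066, adjusted p = 5.515e-16). Npc2 (chr12:84754562-84773152), for the soluble protein that carries cholesterol to NPC1 at the lysosomal membrane, stood at 183, 210.1 and 188 CPM against 69.2, 65.9 and 68.9 CPM, a log2 fold change of 1.51 (edgeR SE 0.10, adjusted p = 3.173e-11). For both genes every library labelled CD11b was above every library labelled CD8 in each genotype.

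**Figure D2:**
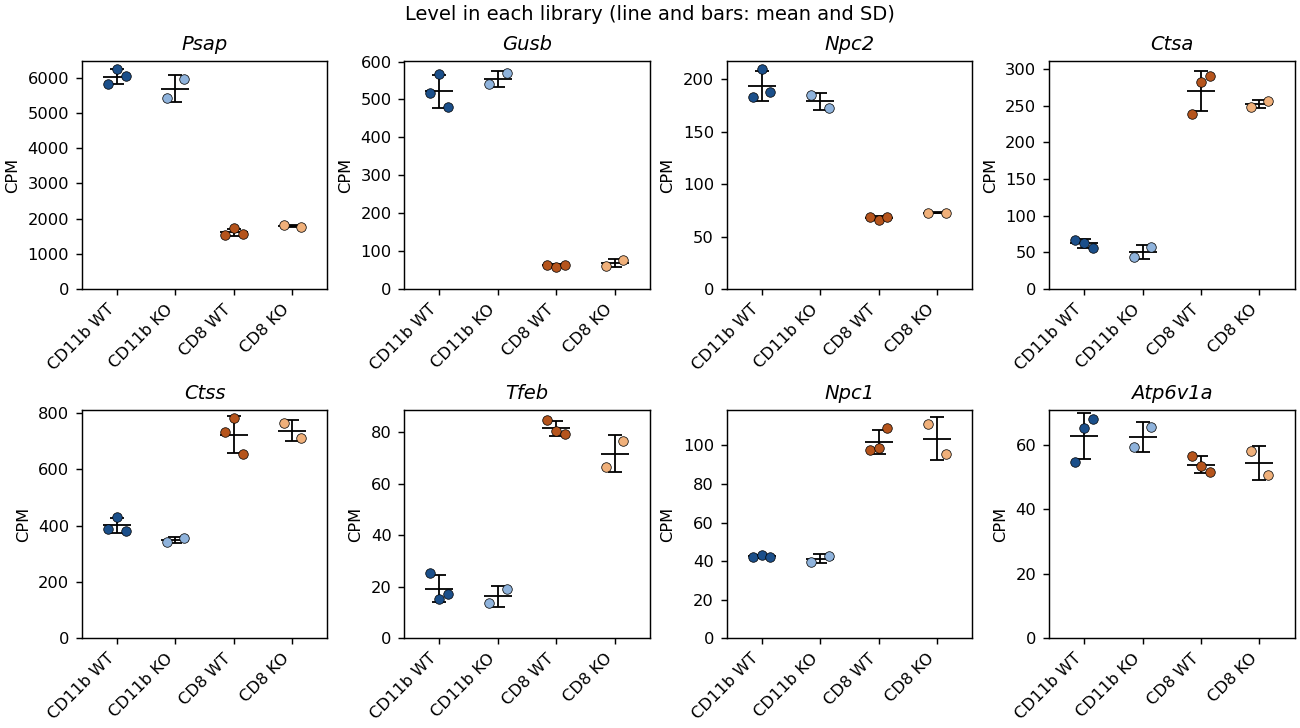
CPM of 8 lysosomal genes in each library, by group (points are libraries, the line and bars are mean and SD, n = 3 for WT and 2 for KO, and each axis starts at 0). Psap, Gusb and Npc2 are higher in both groups labelled CD11b, Ctsa, Ctss, Tfeb and Npc1 are higher in both groups labelled CD8, and the proton pump gene Atp6v1a, which was not called, lies between 50.6 and 67.9 CPM in all 10 libraries.

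Smaller differences in the same direction were called for Grn, Lipa and Hexa. Grn, for progranulin, whose fragments act in the lysosome, had a log2 fold change of 0.77 (edgeR SE 0.095, adjusted p = 7.179e-07). Lipa, for the acid lipase that frees cholesterol from its esters, had 0.64 (edgeR SE 0.12, adjusted p = 0.000259). Hexa, for the alpha chain of beta-hexosaminidase, had 0.37 (edgeR SE 0.12, adjusted p = 0.0230), and its adjusted p was 0.0635 to 0.156 when CD11b WT 1, CD8 WT 2 or CD8 WT 3 was left out.

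Gla and Neu1 went the other way. Gla, for alpha-galactosidase A, the enzyme lacking in Fabry disease, stood at 20.1, 21.8 and 19.4 CPM in CD11b WT and at 80.02, 66.8 and 60.8 CPM in CD8 WT. These groups were far apart, with a log2 fold change of -1.76 (edgeR SE 0.17, adjusted p = 1.133e-08). Neu1, for the lysosomal sialidase that cathepsin A stabilises, had a log2 fold change of -0.55 (edgeR SE 0.18, adjusted p = 0.0201), and its adjusted p was 0.05345 to 0.0606 when CD11b WT 3, CD8 WT 1 or CD8 WT 2 was left out.

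Of the membrane genes, Npc1 was the most unequal. Npc1 encodes the membrane transporter that takes cholesterol from NPC2 out of the lysosome. It stood at 42.1, 43.3 and 42.0 CPM in CD11b WT and at 97.4, 98.7 and 109 CPM in CD8 WT, with a log2 fold change of -1.26 (edgeR SE 0.12, adjusted p = 8.713e-09). Npc1 was thus higher at label CD8, whereas Npc2, which acts just before it, was higher at label CD11b.

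Lamp1 and Lamp2 encode the major glycoproteins that coat the inner side of the lysosomal membrane. Lamp1 (chr8:13159161-13175338) stood at 95.2, 143 and 114 CPM in CD11b WT and at 179, 204 and 165 CPM in CD8 WT, with a log2 fold change of -0.64 (edgeR SE 0.13, adjusted p = 0.000386). Lamp2 (chrX:38401357-38456454) stood at 46.5, 66.1 and 59.5 CPM against 86.3, 100.3 and 85.4 CPM, with a log2 fold change of -0.66 (edgeR SE 0.13, adjusted p = 0.000416). In neither gene did the groups overlap. Mcoln1, for the calcium channel TRPML1, was at 25.998 to 37.3 CPM in CD11b WT and 26.6 to 32.2 CPM in CD8 WT, with a log2 fold change of 0.00023 and a 95% interval of -0.37 to 0.37.

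Of the 5 roles, the proton pump genes had the smallest median size of log2 fold change between the labels in WT. Atp6v1b2, for the B subunit of the V1 part found in most tissues, was at 74.96, 89.8 and 80.3 CPM in CD11b WT and at 45.7, 61.9 and 51.3 CPM in CD8 WT, with a log2 fold change of 0.62 (edgeR SE 0.13, adjusted p = 0.000761). Atp6v0a1, for an isoform of the a subunit of the V0 part, was at 25.4, 18.01 and 22.1 CPM against 31.9, 34.4 and 25.98 CPM. Its groups barely parted, and its log2 fold change of -0.49 (edgeR SE 0.19, adjusted p = 0.0480) was not called under 12 of the 20 alternatives, among them leaving out any library but CD11b WT 1 and CD8 WT 3 (adjusted p = 0.0505 to 0.196).

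The other 5 pump genes were not called in WT. Atp6v0d1, for the d subunit of V0, was at 85.1, 91.9 and 97.9 CPM in CD11b WT and at 116, 105.5 and 110.4 CPM in CD8 WT, groups that did not overlap, with a log2 fold change of -0.27 (edgeR adjusted p = 0.0660). The 95% intervals of Atp6v0b and Atp6v0c, for proton-carrying ring subunits of V0, were -0.38 to 0.32 and -0.46 to 0.14. Those of Atp6v1a and Atp6v1h, for the catalytic and a regulatory subunit of V1, were -0.050 to 0.49 and 0.027 to 0.62. A 2-fold difference (1 on the log2 scale) lay outside the interval of all 7 pump genes in WT.

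**Figure D3:**
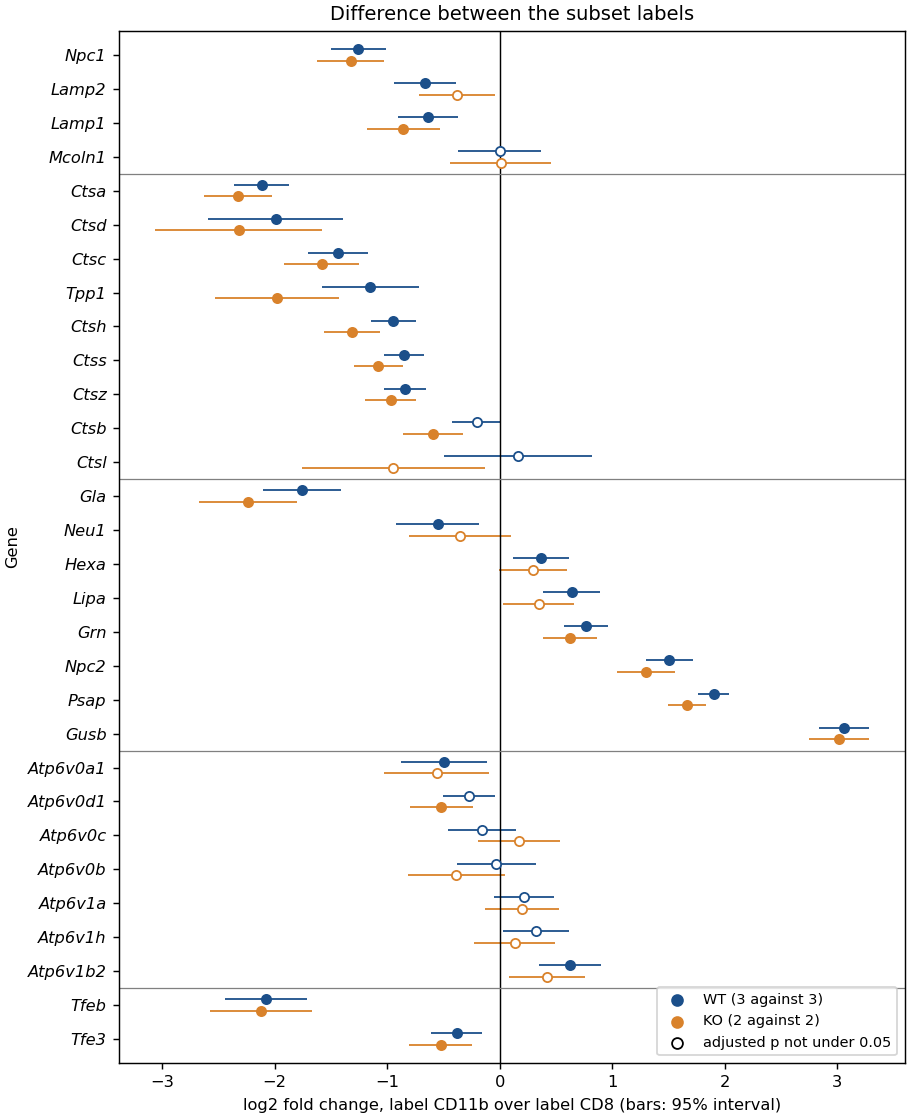
Log2 fold change of label CD11b over label CD8 for the 30 lysosomal genes in WT (blue, 3 against 3 libraries) and in KO (orange, 2 against 2), with 95% intervals from the edgeR fit; open points did not reach an adjusted p under 0.05. Gusb and Psap lie farthest to the right, Ctsa, Tfeb, Ctsd and Gla lie near or beyond -2 in both genotypes, and most pump genes lie near 0.

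Levels of different genes were compared per length, within a library. At label CD11b in WT, Psap led with 3649 ± 403 TPM (SD, n = 3), followed by Ctss with 490 ± 64.7, Ctsz with 245 ± 37.0, Gusb with 190 ± 25.97 and Grn with 181 ± 22.8 TPM. Ctsz, Gusb and Grn were neighbours whose ranges met, but within each library Ctsz was above Gusb and Gusb above Grn. Psap and Ctss stood apart from each other and from the rest. At label CD8 in WT, Psap with 1232 ± 124 TPM and Ctss with 1113 ± 117 TPM had ranges that overlapped, but Psap was above Ctss within each library. They were followed by Ctsz with 552 ± 53.5, Lamp1 with 143 ± 19.3 and Grn with 134 ± 10.04 TPM. Gusb stood at 28.7 ± 1.63 TPM there. The same 5 genes led in the KO group of each label. With the longest transcript as the length, the 5 leading genes were the same at label CD11b and 4 of 5 were the same at label CD8, where Ctsh took the place of Lamp1.

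**Figure D4:**
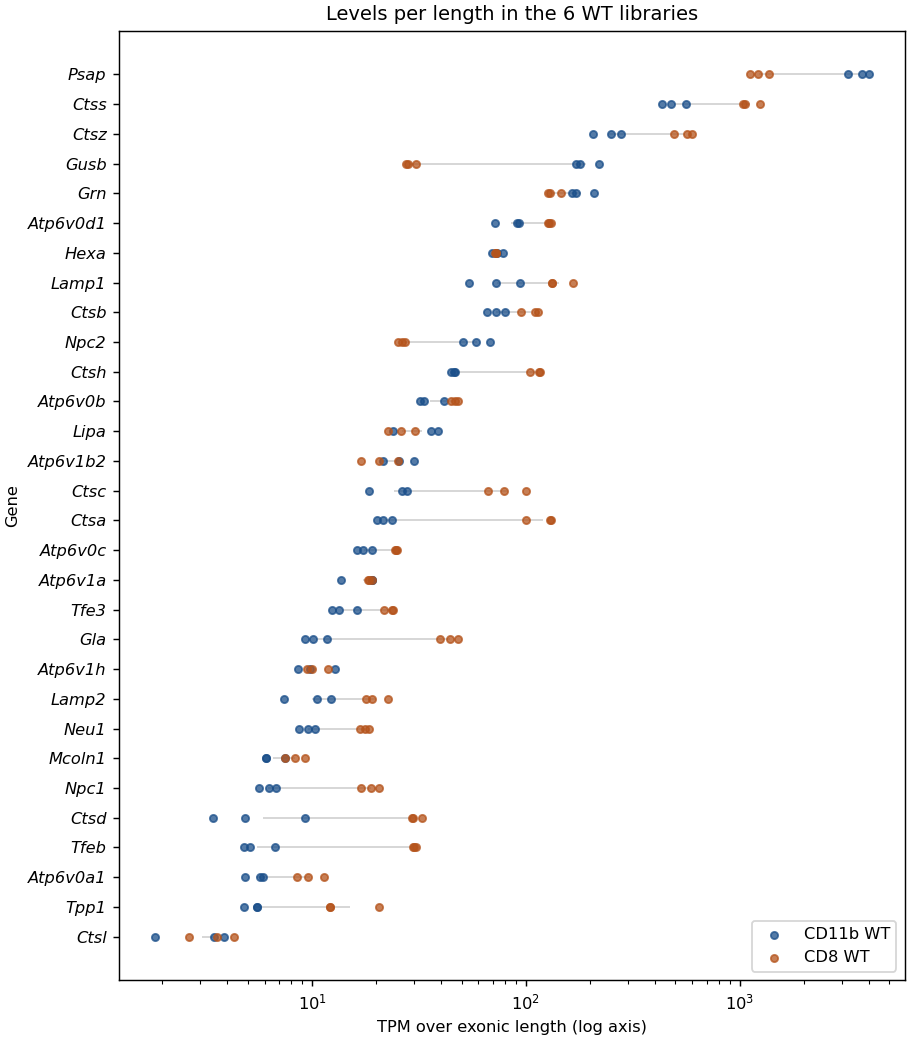
TPM over exonic length (log axis) of the 30 lysosomal genes in the 3 CD11b WT (blue) and 3 CD8 WT (orange) libraries, ordered by the mean of CD11b WT. Psap is the highest gene at both labels, the 2 colours lie farthest apart for Gusb, and Ctsl is the lowest. The value of Ctsd leaves out reads in the 34.4% of its exons shared with Gm49369. That of Ctsl leaves out reads in the 6.1% of its exons shared with Gm49230.

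A set of 7 wider lists with 117 genes show the neighbourhood of the 30, and 105 of these genes were tested. In WT 44 of the 105 (41.9%) were called between the labels, 24 higher and 20 lower at label CD11b, and in KO 43 were called. The lists were written with earlier results of these data known, and their counts stand beside the 29.5% of all genes in WT and 22.8% in KO. Called in WT were 62.5% of the tested wider proteases, 53.6% of hydrolases, 45.5% of pump genes and 33.3% of membrane genes. The mTORC1 list (30%) and the sorting list (28.6%) were near the share of all genes.

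The wider hydrolases leaned the way of the members of that role, with 10 of 28 higher and 5 lower at label CD11b in WT. Ppt1, for a thioesterase that strips palmitate from proteins, had 2174 ± 139 CPM in CD11b WT against 169 ± 29.6 CPM in CD8 WT (SD, n = 3 each). Its log2 fold change was 3.68 (edgeR SE 0.11, adjusted p = 3.701e-17), above that of any of the 30 genes. Fuca1 (alpha-fucosidase) and Arsb (arylsulfatase B) had 2.32 and 2.15, and Acp5, the tartrate-resistant acid phosphatase, had -2.74.

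Among 8 tested proteases outside the 30, 3 were lower and 2 higher at label CD11b in WT. Lgmn, the asparaginyl endopeptidase legumain, had a log2 fold change of -1.81 (edgeR SE 0.11, adjusted p = 3.232e-12), Napsa had -1.21 and Ctso had -0.85. Ctse, for cathepsin E, had 1.7985 and Dpp7 had 1.05. The cystatins bind cysteine cathepsins. Cst3, the secreted inhibitor cystatin C, had 2859 to 3244 CPM at label CD11b and 339 to 436 CPM at label CD8 over 5 libraries each, with a log2 fold change of 2.92 in WT (edgeR SE 0.079, adjusted p = 8.567e-18). Cst7, for cystatin F, an inhibitor that acts within lysosomes, was listed at 0 in 4 of the 5 libraries labelled CD11b and at 0.186 CPM in the other, against 4.75 to 6.41 CPM at label CD8.

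Of the receptors and factors that sort enzymes to lysosomes, 1 of 14 was higher and 3 were lower at label CD11b in WT. These calls are 28.6% of the list, beside 29.5% of all genes tested. Igf2r, the large mannose 6-phosphate receptor, stood at 82.3 to 123 CPM at label CD11b and 4.34 to 17.8 CPM at label CD8, with a log2 fold change of 4.11 in WT (edgeR SE 0.26, adjusted p = 1.425e-11). Sorl1, a sorting receptor of another family, had -1.79 (edgeR SE 0.097, adjusted p = 8.231e-13), Cln8, which helps enzymes leave the endoplasmic reticulum, had -0.85, and Gga2 had -0.84. Gga2 was not called without CD11b WT 2, CD8 WT 2 or CD8 WT 3 (edgeR adjusted p = 0.0580 to 0.0735). The receptors Igf2r and Sorl1 thus differed in opposite directions.

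The other membrane genes gave 2 higher and 5 lower of 21 tested, with Laptm4b at 4.61 and Sidt2 at -1.42, Cd164 at -0.89, Cd68 at -0.66 and Laptm5 at -0.48 as log2 fold changes in WT. Genes around mTORC1 gave 5 higher and 1 lower of 20, so 30% were called, beside 29.5% of all genes tested. Fnip2, a partner of folliculin, which lets mTORC1 act on TFEB and TFE3, stood at 205 to 229 CPM at label CD11b and 24.6 to 27.7 CPM at label CD8 (log2 fold change in WT 3.02, SE 0.11, edgeR adjusted p = 1.426e-15). Lamtor3 and Rraga, parts of the scaffold that brings mTORC1 to the lysosome, had 1.35 and 1.24, the kinase gene Mtor had 0.63 and Slc38a9, an arginine sensor at the lysosome, had -0.87.

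Of 11 further pump genes tested, 3 were higher and 2 lower at label CD11b in WT. Atp6v0a2, for another isoform of the V0 a subunit, stood at 232 to 278 CPM at label CD11b and 86.7 to 92.3 CPM at label CD8, with a log2 fold change in WT of 1.45 (edgeR SE 0.099, adjusted p = 4.323e-11). Atp6v0e had 0.68, Atp6v1d 0.42, Atp6ap1 -0.54 and Tcirg1, for the a3 isoform, -0.35 (edgeR adjusted p = 0.0327). Tcirg1 was not called when CD11b WT 2, CD11b WT 3 or any CD8 WT library was left out, with adjusted p-values of 0.0568 to 0.197, and Atp6v1d was not called without CD11b WT 3, CD8 WT 1 or CD8 WT 2 (0.0792 to 0.0848).

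The same comparison was then made in KO mice, in which no library is shared with the WT comparison. At label CD11b 8 of 9 proteases were lower and none was higher, and of the other hydrolases and cofactors 4 were higher (Gusb, Psap, Npc2 and Grn) and 1 was lower (Gla). Tfeb and Tfe3 were again lower at label CD11b, as were Npc1 and Lamp1. Of the 7 pump genes Atp6v0d1 alone was called, lower at label CD11b, and it was not called without CD11b KO 1 or CD8 KO 2 (edgeR adjusted p = 0.0974 and 0.0551). Tfe3 was not called without CD8 KO 1 (adjusted p = 0.0691).

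In KO 18 of the 30 genes were called (60%, beside 22.8% of all genes tested), 4 higher (beside 10.3%) and 14 lower (beside 12.5%), by edgeR's test with Benjamini-Hochberg adjustment. The libraries of the labels did not overlap for 28 of 30, beside 58.7% of all genes in this comparison of 2 against 2. Without CD11b WT 1 and CD8 KO 2, which leaves CD8 KO 1 alone and assumes that it varies like the other groups, 4 were higher and 13 lower. Gusb had a log2 fold change of 3.02 (edgeR SE 0.13, adjusted p = 4.703e-14) and Psap 1.67 (edgeR SE 0.081, adjusted p = 3.340e-13). Ctsa had -2.32 (edgeR SE 0.15, adjusted p = 2.035e-11), Tfeb -2.12 and Npc1 -1.32.

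Of the 30 genes, 16 were called in both genotypes, all in the same direction: Ctsa, Ctsc, Ctsd, Ctsh, Ctss, Ctsz, Gla, Grn, Gusb, Lamp1, Npc1, Npc2, Psap, Tfe3, Tfeb and Tpp1. These 16 are 72.7% of the 22 called in WT and 88.9% of the 18 called in KO. A further 6 were called in WT and not in KO (Atp6v0a1, Atp6v1b2, Hexa, Lamp2, Lipa and Neu1), and 2 in KO and not in WT (Atp6v0d1 and Ctsb). No gene of the 30 passed the test of the difference between the genotypes, so none of these 8 is shown to differ between them. Across the 30 genes the log2 fold changes in WT and KO had Pearson's r of 0.973 and Spearman's rho of 0.947, and 28 had the same sign, all but Atp6v0c and Ctsl; over all 14528 genes r was 0.611 and 75.7% had the same sign. Genes of a library share its depth and composition, so this is a description.

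The second question of the design is what loss of Atg16l1 does to these genes within each subset. No lysosomal gene of the 30 was called between KO and WT at either label, and most point estimates were small. At label CD11b the log2 fold changes of KO over WT ran from -0.88 (Tpp1) to 0.27 (Atp6v0c), with a median of -0.087, and at label CD8 from -0.32 (Neu1) to 0.48 (Ctsl), with a median of 0.086. The medians over all genes were -0.0073 and 0.0003.

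At label CD11b 0 of 30 genes were called, beside 0.145% of all genes tested (edgeR, Benjamini-Hochberg adjusted p), and 3 of 30 had an unadjusted p under 0.05, beside 6.42% of all genes. DESeq2 and limma also called 0 of 30. Tpp1 had the smallest p. Its levels were 9.56 and 8.48 CPM in CD11b KO and 18.9, 16.1 and 14.7 CPM in CD11b WT, so the KO libraries lay below all WT libraries. The log2 fold change was -0.88 (SE 0.25, 95% interval -1.39 to -0.37) and the edgeR adjusted p was 0.342.

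Gla followed with -0.51 (edgeR SE 0.20, adjusted p = 0.665), at 17.7 and 11.1 CPM in KO against 19.4 to 21.8 CPM in WT. Ctsa (-0.30, adjusted p = 0.726), Ctss (-0.20, adjusted p = 0.780) and Ctsl (-0.63, adjusted p = 0.825) came next in edgeR's order of p. In Ctsa and Ctsl the groups overlapped. The size of 3 of these values rested on single libraries. Without CD11b KO 1 the value was -0.87 for Gla, -0.13 for Ctsa and -0.27 for Ctsl, and without CD11b KO 2 it was -0.20 for Gla, -0.51 for Ctsa and -1.14 for Ctsl. Ctsl had -0.34 without CD11b WT 1. The libraries of KO and WT did not overlap for 4 of the 30 genes (Tpp1, Gla, Ctss and Atp6v0c), beside 20.5% of all genes.

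At label CD8 0 of 30 genes were called, beside 0.145% of all genes (edgeR, Benjamini-Hochberg adjusted p), again 0 of 30 with DESeq2 or limma, and 3 of 30 had an unadjusted p under 0.05, beside 6.52%. Ctsb had the smallest p, at 410.5 and 364 CPM in CD8 KO against 337, 317 and 267 CPM in CD8 WT, with a log2 fold change of 0.33 (edgeR SE 0.12, adjusted p = 0.492). Both KO libraries were above the WT libraries, which held for Ctsh too, at 272 and 297 CPM against 238 to 241.5 CPM (0.24, SE 0.11, edgeR adjusted p = 0.691). Psap (0.15, adjusted p = 0.759), Neu1 (-0.32, adjusted p = 0.862) and Ctsz (0.16, adjusted p = 0.877) followed in edgeR's order.

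At label CD8 the groups did not overlap for 11 of the 30 genes, beside 24% of all genes. The red pulp macrophage markers summed to 472 and 476 CPM in CD8 KO against 304 to 403 CPM in CD8 WT, and the B cell markers to 1040 and 2783 CPM against 582 to 1160 CPM. Their part in the values of Ctsb and Ctsh was not tested. The 95% interval of KO over WT lay within a 2-fold change in either direction for 28 of the 30 genes at label CD11b, all but Tpp1 and Ctsl, and for 29 at label CD8, all but Ctsl. The wider lists gave 0 calls of 105 at either label.

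**Figure D5:**
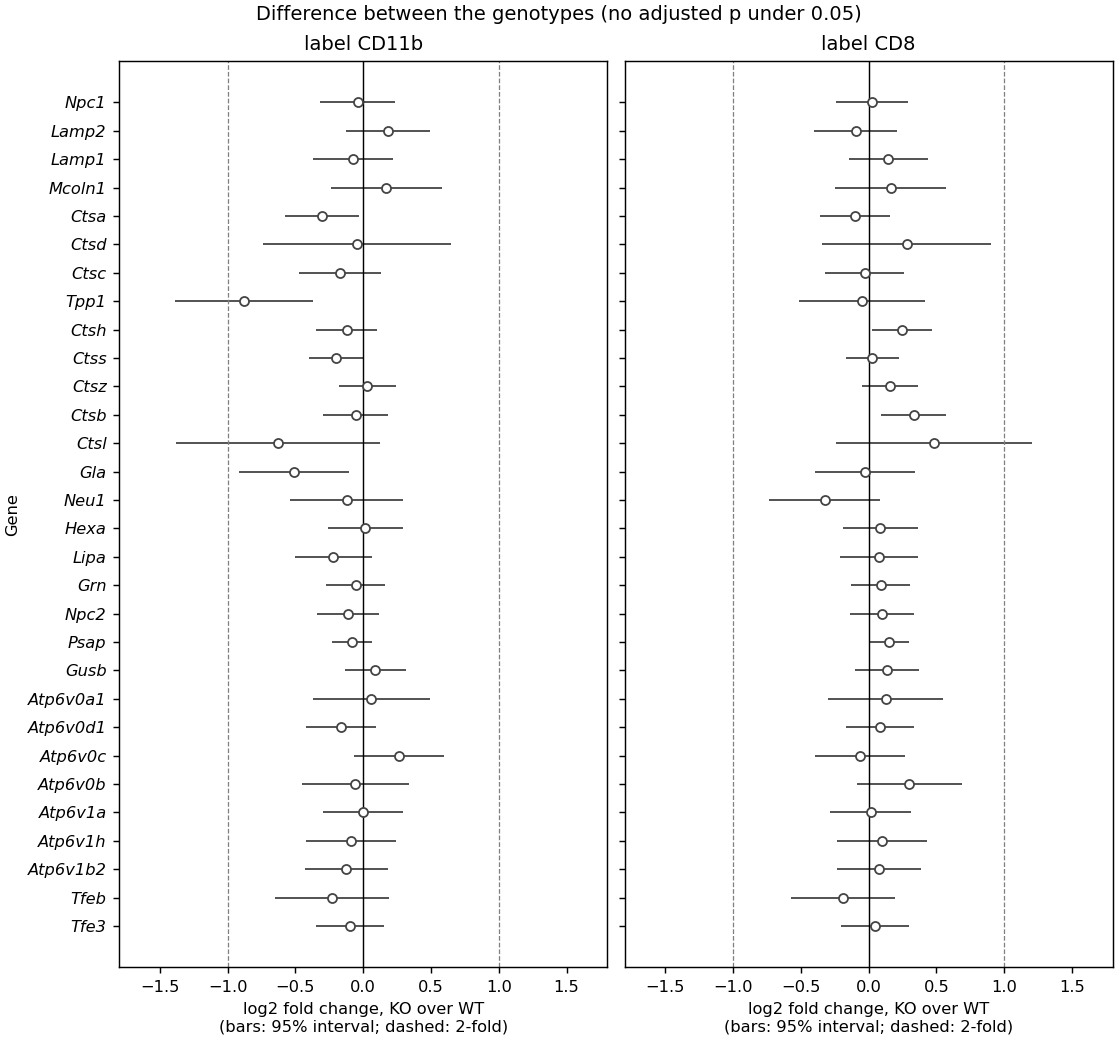
Log2 fold change of KO over WT for the 30 lysosomal genes at label CD11b (left, 2 against 3 libraries) and label CD8 (right, 2 against 3), with 95% intervals from the edgeR fit and dashed lines at a 2-fold change. No gene reached an adjusted p under 0.05; Tpp1 at label CD11b lies lowest at -0.88, and Ctsl has the widest interval in both panels.

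The difference of the genotype effects between the labels, label CD8 minus label CD11b, was called for 0 of the 30 genes, beside 0.0206% of all genes (edgeR, Benjamini-Hochberg adjusted p), and 0 of 30 with DESeq2 or limma. An unadjusted p under 0.05 was reached by 5 of 30, beside 5.46% of all genes: Tpp1 (0.83, SE 0.33), Ctsh (0.37, SE 0.15), Ctsb (0.39, SE 0.16), Psap (0.23, SE 0.10) and Ctsl (1.11, SE 0.50). The lowest edgeR adjusted p among the 30 was 0.866. Ctsh had 0.22 without CD11b WT 1 and CD8 KO 2. Of these 5 genes 4 are proteases, and all 5 differences were positive, as were those of 26 of the 30 genes and of all 9 proteases, beside 7499 of the 14528 genes tested. Of the markers, 11 of 12 for B cells, 12 of 15 for red pulp macrophages and 10 of 12 for cDC2 also had positive differences. The counts were 5 of 6 for plasmacytoid dendritic cells, 3 of 4 for erythroid cells and 4 of 7 for monocytes. They were 5 of 11 for cDC1, 0 of 2 for neutrophils and 0 of 1 for T and NK cells. None of these markers was called, and their part in the values of the 30 genes was not tested. Genes share the depth and composition of their libraries, so these signs are not independent and the counts are a description.

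Tfeb and Tfe3 did not pass the test between genotypes at either label. Tfeb had a log2 fold change of KO over WT of -0.23 (95% interval -0.65 to 0.19) at label CD11b and -0.19 (-0.57 to 0.20) at label CD8, and Tfe3 had -0.098 (-0.35 to 0.16) and 0.045 (-0.21 to 0.30). The log2 fold changes of the 7 pump genes ran from -0.16 (Atp6v0d1) to 0.27 (Atp6v0c) at label CD11b and from -0.064 (Atp6v0c) to 0.298 (Atp6v0b) at label CD8. The 95% intervals were -0.067 to 0.60 for Atp6v0c at label CD11b and -0.089 to 0.69 for Atp6v0b at label CD8. Atg16l1 itself had -3.28 (edgeR SE 0.41, adjusted p = 0.000100) and -2.79 (edgeR SE 0.40, adjusted p = 0.00132) in the same fits.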

How the data were processed

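RNA from sorted spleen dendritic cells was made into strand-specific libraries from 7 ng of total RNA, per the labels' protocols. STAR 2.5.0a and the GRCm38 genome are named in the submitters' processing notes. The authors deposited unnormalised gene counts in the layout of STAR, for unstranded reads and for each strand, and the column of the kit's strand was used. The annotation release, trimming and handling of duplicates are not given in the sources used here. Reads that mapped to several places (21.73% to 25.53%) were not counted to a gene, and the 4 summary lines of each file were left out.

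Of 53379 identifiers, 53274 matched GENCODE vM21, which gave symbols, positions and lengths, and 105 did not. CPM used TMM-scaled library sizes, and TPM used the union of exons. The 4 groups were fitted together by edgeR 4.0.16 (quasi-likelihood, R 4.3.3) over all 10 libraries and the 14528 genes that passed filterByExpr, with a common dispersion of 0.0862, 6 residual degrees of freedom and 16.07 from the prior. SE is the size of the log2 fold change over the root of its F. P-values were adjusted by Benjamini-Hochberg over all genes tested and called under 0.05. On simulated counts the edgeR fit recovered 42% of 2-fold changes between the labels in WT (13751 genes tested) and 29.6% in KO (13683). Between genotypes it recovered 41.7% at label CD11b (13711) and 42.9% at label CD8 (13692), and for the difference 20.6% (13732). In the same order, 9%, 5.1%, 5.9%, 2.6% and 7.1% of the calls fell on unchanged genes. The changed genes were drawn at random from all genes tested, so these shares are not specific to the 30 genes.

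Alternatives were RLE size factors, no filter, a minimum of 1 CPM in 3 libraries, counts without strand, a table without mitochondrial genes and ribosomal RNA, limma 3.58.1 (voom with quality weights), DESeq2 1.42.0, only the libraries compared, a block on the replicate number, each library left out, and the longest transcript as length. The replicate block was on genotype and number for the comparisons between labels. It was on number alone for those between genotypes and for the difference. Leaving out CD11b WT 1 and CD8 KO 2 together was added after the data were seen. The members, the lists and the tests were chosen with earlier results of these data known. All 30 genes are reported, with library values for the 3 of each role with the smallest adjusted p between the labels in WT, the 5 with the smallest p between genotypes, and up to 5 called genes with the smallest p from each wider list, of which 1 gene is not reported here. Other genes or libraries named for a value that stood out were chosen after their values were seen. Promoter sequences are RefSeq's, on GRCm38.p6. Python 3.11.15 was used for summaries and figures.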

Additional observations from a re-analysis of the deposited data

Results flagged for a closer look

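For Ctsa, 12.1% of all reads that fell on the gene over the 10 libraries were on the strand opposite to it, a signal that the comparisons do not use, whereas no other gene of the 30 exceeded 2.59% (Npc1). The opposite-strand counts at Ctsa were 35 to 94 in the libraries labelled CD11b and 301 to 562 in those labelled CD8. Pltp, which encodes a phospholipid transfer protein and overlaps Ctsa on the other strand, had 30 to 160 counts of its own at label CD11b and 638 to 1021 at label CD8. The share of Ctsa reads on the opposite strand was 3.99% to 12.88% at label CD11b and 11.75% to 15.66% at label CD8.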

How the results depend on the processing

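Each count below was recomputed under 20 alternatives, or 19 for the difference of effects, which a fit to only the libraries compared leaves as it is. The counts of the 30 genes called between the labels moved little: 6 to 7 higher and 13 to 15 lower in WT, and 4 to 5 higher and 13 to 15 lower in KO. Of the 22 calls in WT 19 held under all 20 alternatives, all but Atp6v0a1, Hexa and Neu1, and of the 18 in KO 16 held, all but Atp6v0d1 and Tfe3. No gene of the 30 was called between genotypes under any of them.

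The numbers of all genes called moved more. Between genotypes at label CD11b, 21 genes were called, 71 without the filter, 39 with DESeq2, 13 without CD11b WT 1 and CD8 KO 2, and 14 to 29 when each library was left out in turn. At label CD8, 21 genes were called, 142 without the filter, 55 with DESeq2, 63 with limma, 78 with only the libraries compared, and 7 (without CD8 KO 2) to 53 (without CD8 KO 1) when each library was left out, with 32 without CD11b WT 1. For the difference of effects, 3 genes were called, 41 without the filter, 6 with unstranded counts, 12 with DESeq2, and 3 to 8 when each library was left out (8 without CD8 KO 1, 6 without CD8 WT 1, and 5 without CD11b WT 1, CD11b WT 3 or CD8 WT 3). The cause was not tested. Atg16l1 at label CD11b missed the threshold with limma (adjusted p = 0.0654).

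The log2 fold changes between the labels that changed sign belonged to genes that were not called. In WT, Mcoln1 (0.00023) became -0.000851 with RLE factors, -0.00164 with DESeq2, -0.0245 with limma, -0.01427 with the replicate block and -0.1759 without CD11b WT 1 and CD8 KO 2, and Ctsl became -0.1181 without those 2 libraries. In KO, Mcoln1 became -0.01324 with limma. When each library was left out in turn, the values in WT ran from -0.1816 to 0.09881 for Mcoln1, from -0.1244 to 0.4573 for Ctsl and from -0.2347 to 0.06566 for Atp6v0b, and in KO from -0.166 to 0.1688 for Mcoln1 and from -0.07225 to 0.3161 for Atp6v1h. Ctsl was below 0 in WT without CD11b WT 1, and Atp6v1h below 0 in KO without CD11b KO 1.

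Same-numbered libraries of the 2 labels correlated in their deviations from the group means by 0.033 to 0.061 in WT and 0.062 in KO. Those of the 2 genotypes correlated by -0.049 to 0.061. Different-numbered WT libraries of the 2 labels had -0.044 to -0.012, and each of the 6 WT libraries was closest to its own number across the labels. Deviations from a mean sum to 0 within a group, so part of this contrast is fixed in advance. In KO, with 2 libraries a group, different-numbered libraries of the 2 labels had -0.062, the mirror of 0.062. These values do not settle whether the same number means the same mouse, and the main fits took no pairs. With the block on number alone, which joins WT and KO libraries, 8 genes were called for the difference of effects in place of 3. With the block on genotype and number, Ctsl and Atp6v1b2 were called between the labels in KO (edgeR adjusted p = 0.0402 and 0.0411). Without the block, Ctsl in KO was also called when CD11b WT 2 or CD11b KO 2 was left out (adjusted p = 0.0453 and 0.0471), and Atp6v1b2 in KO when CD8 WT 2 was (0.0467).

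Groups of 2 and 3 libraries limit what could be seen: the median SE of the 30 genes between genotypes was 0.143 at label CD11b and 0.141 at label CD8, and Ctsl, with 55 to 219 counts a library, had 0.363 and 0.349.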

Other observations

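Isoforms of the V0 a subunit, which steer the proton pump to different membranes, had a different order at each label per unit of exonic length. In CD11b WT Atp6v0a2 led with 59.9 ± 7.19 TPM, followed by Tcirg1 with 44.2 ± 5.42 and Atp6v0a1 with 5.48 ± 0.552 TPM (SD, n = 3). In CD8 WT Tcirg1 led with 71.9 ± 1.20 TPM, followed by Atp6v0a2 with 27.7 ± 0.661 and Atp6v0a1 with 9.82 ± 1.47 TPM. The ranges of Atp6v0a2 and Tcirg1 did not meet within either label (52.3 to 66.6 against 38.5 to 49.2 TPM, and 27.0 to 28.3 against 70.7 to 73.1 TPM). With the longest transcript as the length, the ranges at label CD11b met (60.3 to 75.4 TPM for Atp6v0a2 and 52.4 to 68.2 TPM for Tcirg1), while those at label CD8 stayed apart (30.3 to 31.5 and 94.8 to 98.95 TPM). Atp6v0a4 was listed at 0 in all 10 libraries. These values are a description chosen after they were seen.

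Cystatin C and prosaposin were the most abundant transcripts of these lists at label CD11b, with 3974 ± 491 TPM for Cst3 and 3649 ± 403 TPM for Psap in WT, and their ranges overlapped (3577 to 4522 and 3214 to 4009 TPM). With the longest transcript as the length they did not, at 4825 to 5989 TPM for Cst3 and 3042 to 3725 TPM for Psap. At label CD8 Cst3 had 662 ± 73.5 TPM, below both Psap and Ctss.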
